A study of Mus musculus with 6 samples.

Results

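The genes described here hold sister chromatids together in the oocyte, shield that bond or undo it. The 10 members were taken by name from the deposited count table of 55487 genes, after Ensembl identifiers were paired with mouse symbols of GENCODE M21, and all 10 were found in it. They are the cohesin subunit genes Rec8, Smc1b, Stag3, Smc3, Rad21 and Stag1, the shugoshin gene Sgo2a, the separase gene Espl1, the securin gene Pttg1 and the cohesin-release gene Wapl. RNA had been sequenced from 6 libraries of mouse oocytes, 3 labelled control and 3 labelled metformin. In both groups, females had been given 10 IU of pregnant mare serum gonadotropin. Fully grown germinal-vesicle oocytes were collected after 46 to 48 h, freed of cumulus cells and cultured in M16 medium for 16 h, to the metaphase II stage. Metformin, a biguanide used against type 2 diabetes, was the only labelled difference. The culture protocol lists 10, 20 and 50 μM, and the sequenced dose, the number of oocytes per library and the strain are not given. Aged mice are named in the series title, but no sample label gives an age. The model is therefore denuded oocytes matured outside the follicle, from females of unlabelled age, with no labelled contrast of aged and young.

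Cohesin is a ring of a pair of SMC proteins closed by a kleisin, with a STAG protein bound to the kleisin. In meiosis the kleisin REC8 takes the place of much of RAD21, SMC1B stands beside SMC1A, and STAG3 beside STAG1 and STAG2. Cohesion is laid down before birth and must last until the oocyte divides, and its loss with maternal age is a known source of chromosome errors. SGO2 brings the phosphatase PP2A to centromeres and keeps REC8 there from being cut in the first division. Separase cuts REC8 at anaphase, securin and cyclin B hold separase inactive until then, and WAPL opens the ring without cutting it.

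The 3 meiotic ring genes among the members differed in coverage: Rec8 had no counted read, Stag3 almost none, and Smc1b 494 to 661 counts per library. Upstream sequences are shown for Rec8 and Smc1b, the extremes of that trio, and for Espl1, whose protein cuts REC8. They come from the RefSeq promoter table on GRCm38.p6 and were trimmed to bases that lie before both the RefSeq and the GENCODE start. Capitals mark the E-box CACGTG, the E2F-type element GCGGGA, the CCAAT box and the cell cycle element TTTGAA, each searched on both strands. The parts shown are chr14:55617916-55618036, plus strand, for Rec8, chr15:85131965-85132207, minus strand, for Smc1b, and chr15:102296043-102296265, plus strand, for Espl1.
Rec8: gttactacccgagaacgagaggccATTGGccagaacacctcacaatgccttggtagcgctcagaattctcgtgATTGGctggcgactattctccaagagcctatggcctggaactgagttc
Smc1b: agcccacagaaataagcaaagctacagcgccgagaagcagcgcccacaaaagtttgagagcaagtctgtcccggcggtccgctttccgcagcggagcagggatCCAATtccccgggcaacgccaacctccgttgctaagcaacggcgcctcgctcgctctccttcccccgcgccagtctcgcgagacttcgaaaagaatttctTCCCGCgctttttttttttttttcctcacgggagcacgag
Espl1: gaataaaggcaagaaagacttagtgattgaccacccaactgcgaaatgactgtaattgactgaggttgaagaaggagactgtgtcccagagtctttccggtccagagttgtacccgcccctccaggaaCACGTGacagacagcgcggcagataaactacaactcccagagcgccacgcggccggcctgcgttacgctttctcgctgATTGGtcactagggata

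In the whole 250 bases before the RefSeq start, 9 members had an entry, 10 windows in all because Sgo2a has an additional start; Rad21 had none. The E2F-type element was found in 5 of the 9 genes (Rec8, Smc1b, Smc3, Stag1 and Sgo2a), against 16.9% of all 32851 windows of that length. A CCAAT box was found in 7 of 9, against 33.8% of all windows. The E-box was found in Stag3 and Espl1, against 6.02% of all windows, and the TTTGAA element in Espl1 alone among the 9 genes, against 16.0%. The member figures count genes and the background counts windows, so Sgo2a was counted if either of its windows matched. The background took in windows of 27025 genes with no limit to protein-coding genes, which all 9 members are. Several of these matches lie past the GENCODE start. The windows of 3 genes (Stag3, Stag1 and Pttg1, the last without any match) fall wholly inside the GENCODE gene. That of Rec8 has 121 bases before it and that of Espl1 has 223. In bases before both starts the E2F-type element was left in 3 genes (Smc1b, Smc3 and Sgo2a) and the CCAAT box in 5. There the E-box was left in 1 gene, Espl1, and the TTTGAA element in 0. No background share was computed for these trimmed bases. In the stretches printed, Rec8 and Smc1b both hold a CCAAT box, and the E2F-type element stands in that of Smc1b and not in that of Rec8. A match describes the letters only.

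All 6 libraries held oocyte RNA at a similar depth, with total counts from 8622281 to 10588292. The 7 oocyte markers, among them Gdf9 and Zp3, summed to between 18168 and 22892 CPM (counts divided by the TMM-scaled library size). Of 8 cumulus and granulosa markers, Foxl2, Amh and Ptx3 had 0 counts in every library. That list summed to 37.0 to 42.8 CPM in control and 38.2 to 49.5 CPM in metformin libraries, nearly all of it Cyp19a1. Blood markers summed to between 1.28 and 2.00 CPM in metformin libraries and up to 32.0 CPM in control replicate 1, and stroma markers reached 8.10 CPM in that library. The labels do not say whether the libraries came from separate animals or pools, so p-values measure the spread between these libraries, which may be partly technical. More oocytes in a library and more RNA per oocyte cannot be told apart.

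To compare genes with each other, each CPM value was divided by the gene's merged exon length, and these per-length levels ran from 2916 on average to 0. Pttg1 averaged 2916 ± 248 CPM per kilobase (SD, n = 6 libraries), which placed it at rank 29 of 25970 genes with any count. Smc3 followed at 99.5 ± 8.26, Wapl at 79.8 ± 20.5 and Rad21 at 43.9 ± 3.66 CPM per kilobase. Sgo2a averaged 20.9 ± 1.75, Espl1 15.7 ± 2.33 and Smc1b 14.8 ± 1.39 CPM per kilobase. Stag1 averaged 3.33 ± 1.04, Stag3 0.125 ± 0.0685 and Rec8 0 CPM per kilobase. The securin message therefore stood 29.3-fold above the next member, while 2 of the 3 meiosis-specific ring genes among the members stood at the bottom. The kit primes on poly(A), so all comparisons between genes here are of polyadenylated message that was read. Tail length was not measured.

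**Figure D1:**
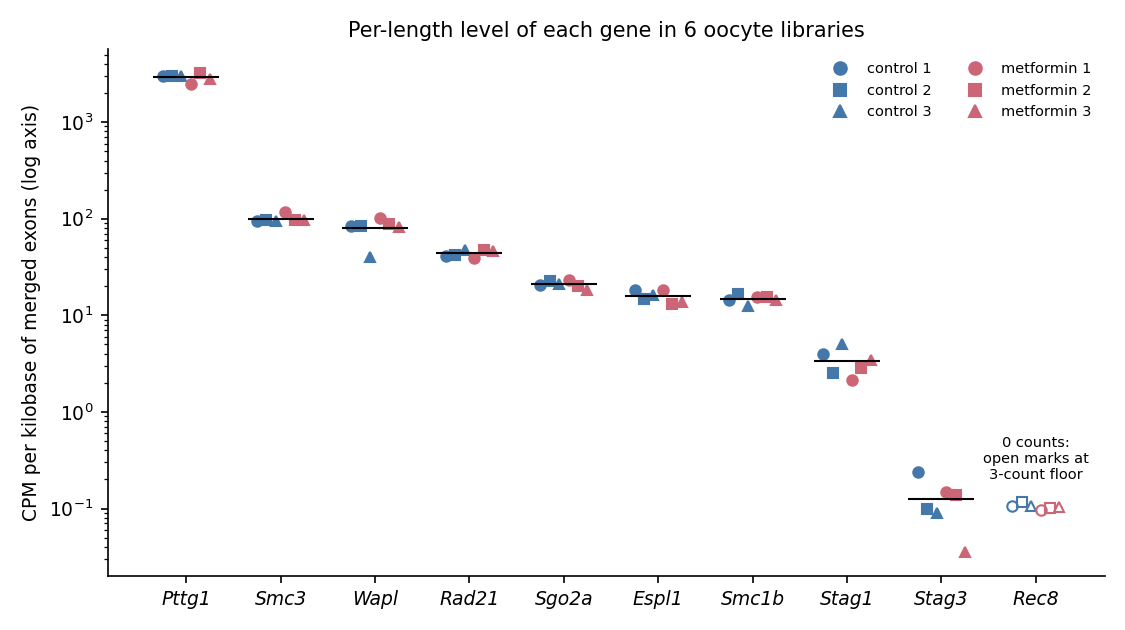
Per-length level of the 10 genes (CPM per kilobase of merged exons, log axis) in each library, blue for control and red for metformin, with the shape giving the replicate and the black line the mean of 6 libraries. Rec8 had 0 counts, and its open marks stand at the level of 3 counts in that library, between 0.0972 and 0.116 CPM per kilobase. Wapl in control replicate 3 lies below the 5 other Wapl values.

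Neighbours in this order were not all distinct. The ranges of the 6 libraries did not overlap between Pttg1 and Smc3, Rad21 and Sgo2a, Smc1b and Stag1, Stag1 and Stag3, or Stag3 and Rec8. Smc3 lay above Wapl and Sgo2a above Espl1 within each of the 6 libraries, although their ranges over libraries overlapped. Wapl lay above Rad21 in 5 of 6 libraries, the exception being control replicate 3. Espl1 and Smc1b did not differ beyond their spread, with Espl1 the higher in 3 of 6 libraries, and their order depended on the length used: Espl1 was the higher in 6 of 6 by longest transcript and in 0 of 6 by the deposited FPKM.

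The meiotic kleisin gene Rec8 (ENSMUSG00000002324, GRCm38 chromosome 14, 55618037 to 55625395, plus strand) had 0 counts in all 6 libraries. A count of 0 allows up to 3 counts, which was 0.285 to 0.339 CPM depending on the library. Floors cover counting error only. Whether Rec8 reads were lost in the authors' counting cannot be seen from the deposited counts, and no check below tests it. On the annotation Rec8 shares no exon with another gene, and no other annotated transcript matched it at 90% identity or more over 200 bases. Of the 15 other protein-coding genes within 50 kilobases, 8 had counts in every library. The nearest, Ipo4, a nuclear import receptor gene that ends a few bases downstream, had 10 to 14 counts. Rec8 was 1 of 5857 protein-coding genes, 26.7% of the 21974 in the table, at 0 in all libraries. These values limit the polyadenylated message that was read and counted, not the REC8 protein.

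Stag3 (ENSMUSG00000036928, chromosome 5, 138280240 to 138312393, plus strand), which encodes the meiotic STAG subunit, had 13, 5 and 5 counts in control and 9, 8 and 2 in metformin libraries. The groups overlapped. The total of 19 against 23 counts gave a metformin to control ratio of 0.760, with an exact 95% interval of 0.392 to 1.46 that covers counting error only. Neither Rec8 nor Stag3 reached the minimum level for the test across genes, so no fitted change is given for them.

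Smc1b (ENSMUSG00000022432, chromosome 15, 85064689 to 85131964, minus strand), the meiotic SMC1 gene, had 549, 595 and 494 counts in control and 661, 638 and 567 in metformin libraries. These are 57.7, 67.3 and 51.0 CPM against 62.9, 62.7 and 58.0 CPM, with overlapping groups. Control replicates 2 and 3 were the highest and the lowest of the 6. The log2 fold change was 0.06 (SE 0.154, 95% interval -0.28 to 0.40), and it was 0.17 without control replicate 2 and -0.0296 without control replicate 3.

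Smc3 (ENSMUSG00000024974, chromosome 19, 53600398 to 53645833, plus strand), the subunit gene shared by meiotic and mitotic rings, was the most abundant ring gene. It stood at 520, 540 and 526 CPM in control and 643, 543 and 536 CPM in metformin libraries, where metformin replicate 1 was the high value and the 5 others lay close together. Its log2 fold change was 0.12 (SE 0.130, 95% interval -0.17 to 0.40), and it was 0.0285 without metformin replicate 1. The annotation holds 1 processed pseudogene that resembles it, Gm29763, at 94.5% identity over 616 bases, which had 3 to 8 counts.

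Rad21 (ENSMUSG00000022314, chromosome 15, 51962240 to 51991747, minus strand), the mitotic kleisin gene, stood at 172, 178 and 203 CPM in control and 167, 201 and 194 CPM in metformin libraries. The groups overlapped throughout, and the log2 fold change was 0.02 (SE 0.137, 95% interval -0.28 to 0.32). Its sign turned when control replicate 1 or 2 or metformin replicate 2 or 3 was left out, within -0.0335 to 0.0976 over all omissions. Per length, Rad21 was at least 364-fold higher than Rec8 in each library, taken against the floor of 3 Rec8 counts per library.

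Stag1 (ENSMUSG00000037286, chromosome 9, 100597798 to 100959375, plus strand), a mitotic STAG gene, was among the less steady members. It stood at 46.5, 30.1 and 59.0 CPM in control and 25.5, 33.2 and 41.0 CPM in metformin libraries. Control replicate 3 was the highest and metformin replicate 1 the lowest, and control replicate 2 fell inside the metformin range. The log2 fold change was -0.44 (SE 0.254, 95% interval -1.005 to 0.12, unadjusted p = 0.109, adjusted p = 1.00, edgeR). It was -0.20 without control replicate 3 and -0.67 without control replicate 2 (edgeR, unadjusted p = 0.444 and 0.0151, adjusted p = 1.00 for both), and between -0.62 and -0.28 without 1 of the 4 other libraries.

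Within each ring position the share of the paralogues was computed from per-length levels, which needs no scaling between libraries. Smc1b made up 52.9%, 52.0% and 53.2% of the SMC1 level in control and 52.2%, 58.5% and 54.1% in metformin libraries, so the meiotic gene was slightly the higher in all 6. Which of the pair was higher depended on the length used: the Smc1b share was 56.3% to 62.7% by deposited FPKM and 46.8% to 53.5% by longest transcript. The group means were 52.7% ± 0.622 and 54.95% ± 3.25 (SD, n = 3), a difference that did not pass a two-sided exact permutation test (p = 0.3, adjusted p = 0.6 over 4 quantities). At the kleisin position Rad21 made up 85.9% to 94.0% and Rad21l, a further meiotic kleisin gene, 5.96% to 14.1%. Rec8 made up 0%, with an upper limit of 0.244% or less in each library from the floor of 3 counts. At the STAG position Stag2 made up 69.5% to 82.5%, Stag1 16.4% to 29.96% and Stag3 0.268% to 1.53%. These shares also moved with the length: Stag1 made up 21.8% to 37.8% by longest transcript and 13.1% to 24.7% by deposited FPKM. Stag2 made up 61.7% to 77.2% and 74.7% to 85.8% by those lengths, in turn. By merged exons, the Stag3 share averaged 0.915% ± 0.537 in control and 0.774% ± 0.450 in metformin libraries (SD, n = 3; two-sided exact permutation p = 0.7, adjusted p = 0.933).

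**Figure D2:**
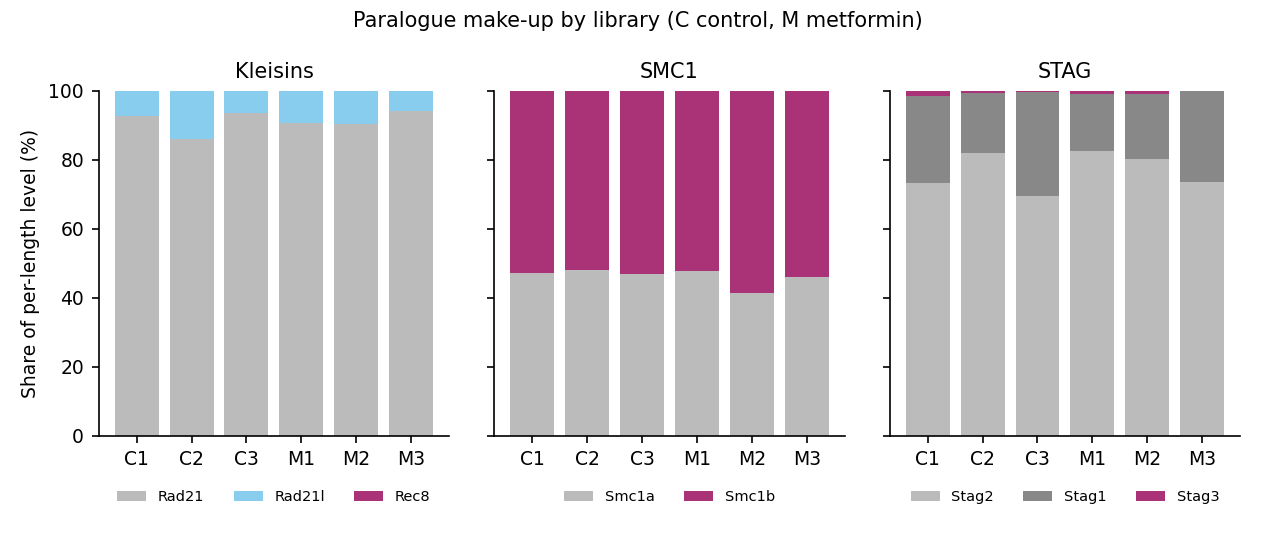
Share of each paralogue in the summed per-length level (percent) at the kleisin, SMC1 and STAG positions, 1 bar per library. Purple marks Rec8, Smc1b and Stag3: it fills 52.0% to 58.5% of the SMC1 bars, at most 1.53% of the STAG bars and none of the kleisin bars.

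Sgo2a (ENSMUSG00000026039, chromosome 1, 57995971 to 58025899, plus strand), the gene of the centromeric protector, stood at 145, 158 and 148 CPM in control and 161, 139 and 128 CPM in metformin libraries. Metformin replicates 1 and 3 were the highest and the lowest value. The log2 fold change was -0.07 (SE 0.138, 95% interval -0.37 to 0.23), and it was -0.17 without metformin replicate 1 and 0.00224 without metformin replicate 3. Of the exon bases of Sgo2a, 35.04% also lie in exons of Kctd18 on the opposite strand. The library kit does not keep the strand, so reads in that stretch cannot be assigned with certainty. Kctd18 had 163 to 201 counts and Sgo2a 1249 to 1698. Sgo1, the related gene that protects mitotic centromeres, stood at 84.5 ± 6.02 and 86.4 ± 4.94 CPM, and the Sgo2a relative Sgo2b at 24.5 ± 3.02 and 26.3 ± 2.13 CPM (SD, n = 3).

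Espl1 (ENSMUSG00000058290, chromosome 15, 102296266 to 102324357, plus strand), the separase gene, stood at 161, 128 and 142 CPM in control and 160, 114 and 119 CPM in metformin libraries. Replicate 1 was the highest of both groups. The log2 fold change was -0.13 (SE 0.165, 95% interval -0.49 to 0.23). Leaving out metformin replicate 1 gave -0.30 and leaving out control replicate 2 gave -0.21. The value moved to -0.0403 on omission of metformin replicate 2, to -0.0452 on that of control replicate 1 and to -0.0660 on that of metformin replicate 3.

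Pttg1 (ENSMUSG00000020415, chromosome 11, 43420250 to 43426251, minus strand), the securin gene, stood at 6005, 6056 and 5991 CPM in control and 5005, 6415 and 5521 CPM in metformin libraries. The control values were nearly level, and the metformin values enclosed them. The log2 fold change was -0.09 (SE 0.145, 95% interval -0.41 to 0.23), and it was -0.0126 without metformin replicate 1 and -0.19 without metformin replicate 2. Per length, Pttg1 exceeded Espl1 between 137-fold and 247-fold by merged exons, and between 78.0-fold and 141-fold by deposited FPKM. The log2 ratio was 7.53 ± 0.171 in control and 7.57 ± 0.434 in metformin libraries (SD, n = 3; two-sided exact permutation p = 1.0).

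Wapl (ENSMUSG00000041408, chromosome 14, 34673928 to 34747983, plus strand) stood at 561, 550 and 267 CPM in control and 665, 590 and 538 CPM in metformin libraries. Control replicate 3 lay far below the 5 others, and the other 2 controls fell inside the metformin range. The log2 fold change was 0.38 (SE 0.266, 95% interval -0.23 to 0.99, unadjusted p = 0.192, adjusted p = 1.00, edgeR). It fell to 0.11 without control replicate 3 and lay between 0.29 and 0.54 without any other library (adjusted p = 1.00, edgeR). Stag1 had its highest value and Wapl its lowest in control replicate 3, and the reverse held in metformin replicate 1.

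The log2 ratio of Wapl to Sgo2a per length was 2.03, 1.88 and 0.94 in control and 2.12, 2.16 and 2.15 in metformin libraries. The groups did not overlap. The means were 1.62 ± 0.592 and 2.15 ± 0.0201 (SD, n = 3), a difference of 0.53 on the log2 scale. The two-sided exact permutation p was 0.1, the smallest that 3 against 3 libraries can give, and 0.4 after adjustment over 4 quantities. Most of the difference came from control replicate 3: without it the difference was 0.19.

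**Figure D3:**
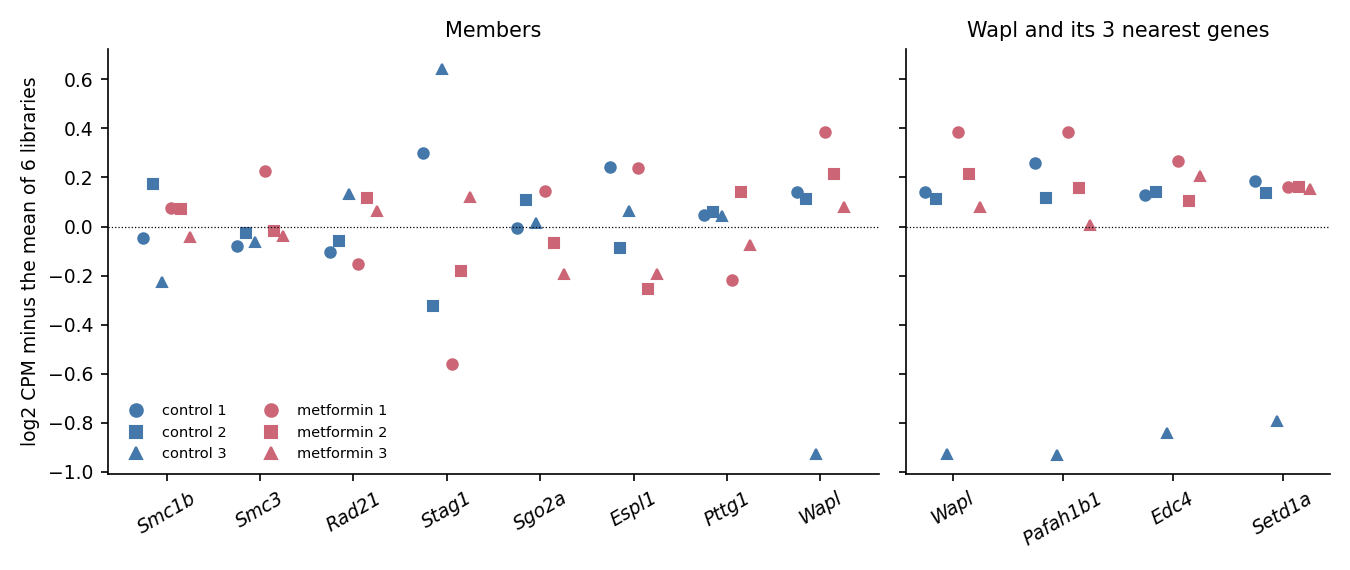
Log2 CPM minus the mean of the 6 libraries, for the 8 members that were tested (left) and for Wapl with the 3 genes nearest to it in pattern (right), colours by group and shapes by replicate. Control replicate 3 of Wapl lies at -0.93 and the 5 other values between 0.08 and 0.39.

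Of the 8 members tested, Wapl and Stag1 varied most from library to library. Stag3, too low to be tested, ran from 2 to 13 counts. The SD of log2 CPM over 6 libraries was 0.47 for Wapl and 0.44 for Stag1, larger than that of 83.6% and 80.9% of the 12793 genes tested. Espl1 had an SD of 0.21. Smc1b, Smc3, Rad21, Sgo2a and Pttg1 lay between 0.11 and 0.14, where the median gene had 0.27. The 8 members tested averaged 39.2 to 5832 CPM, and this comparison with all genes tested was not matched for level. It does not say how their spread ranks among genes of like level. The 3 genes of at least 10 CPM nearest to Wapl in their pattern over 6 libraries were Pafah1b1, Edc4 and Setd1a. Their root mean squared differences from Wapl were 0.0608, 0.0922 and 0.116 on the log2 scale, against a median of 0.475 over 6667 genes. Each was lowest in control replicate 3, at 32.6, 60.2 and 22.9 CPM, against at least 62.7, 116 and 43.9 CPM in the other libraries. The 3 genes were picked for their likeness to Wapl over these same libraries, so their low value there follows from the choice. A shared cause was not tested.

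Metformin against control called none of the members. By edgeR's quasi-likelihood test, 0 of the 8 members tested passed an adjusted p of 0.05, where 0.0391% of all 12793 genes passed, and 0 had an unadjusted p under 0.05, where 1.5% did. DESeq2 also called 0 members, against 0.0308% of all genes. Of the 8 members, 4 were fitted higher and 4 lower, against 52.5% of all genes fitted higher. The median log2 fold change was -0.03, against 0.01 over all genes. CPM ranges of the groups overlapped for all 8, where 5.63% of all genes had no overlap. For 6 members the 95% interval lay within 0.5 of 0 on the log2 scale; those of Stag1 and Wapl were wider. These intervals bound the change and do not show that the levels were equal.

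**Figure D4:**
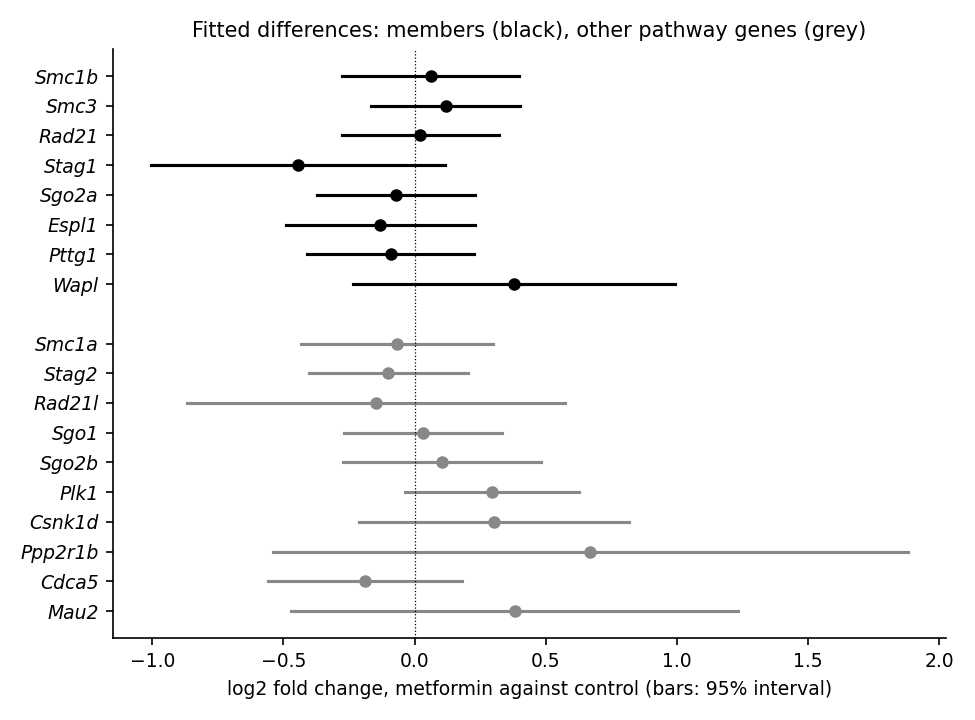
Log2 fold change of metformin against control with its 95% interval from edgeR's quasi-likelihood fit, for the 8 members tested (black) and 10 other pathway genes (grey). Every interval crosses 0, and Stag1 (-0.44) and Wapl (0.38) are the members farthest from it.

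The rest of the pathway was described by 31 further genes for cohesin loading, acetylation, protection, phosphorylation and release. Of these 29 were tested, 0 passed in either direction by edgeR or DESeq2, and 0 had an unadjusted p under 0.05. The fit put 13 of the 29 above and 16 below control, and their median was -0.02 on the log2 scale. The paralogues Smc1a, at 75.3 ± 12.4 and 71.8 ± 9.47 CPM, and Stag2, at 96.4 ± 2.21 and 89.9 ± 8.64 CPM, overlapped between groups (SD, n = 3). Rad21l stood at 7.49 ± 3.40 and 6.73 ± 1.87 CPM (SD, n = 3), with control replicate 2 the highest at 11.4 CPM.

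The 5 pathway genes with the smallest unadjusted p had an adjusted p of 1.00 by edgeR. They were Plk1, a kinase that acts on cohesin, with a log2 fold change of 0.30 (SE 0.152), and Csnk1d, a casein kinase 1 gene, with 0.30 (SE 0.235). Csnk1d was the one gene of the 29 tested whose groups did not overlap, where 5.63% of all 12793 genes tested had no overlap. Csnk1d stood at 4.07 to 4.73 CPM in control and 4.76 to 5.89 CPM in metformin libraries. Ppp2r1b, a PP2A scaffold gene, had 0.67 (SE 0.515), Cdca5, which encodes the WAPL antagonist sororin, -0.19 (SE 0.168), and the loader gene Mau2 0.38 (SE 0.377). Single libraries weighed on these values: Mau2 ran from 0.0131 without control replicate 2 to 0.67 without control replicate 1, and Cdca5 from -0.0533 without control replicate 3 to -0.32 without metformin replicate 3. Ppp2r1b ran from 0.33 without metformin replicate 2 to 1.09 without control replicate 1, and was 1.05 without metformin replicate 3 (edgeR, unadjusted p = 0.0114). Plk1 was 0.41 without metformin replicate 2 (edgeR, unadjusted p = 0.0261), and neither passed after adjustment.

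Per-length levels depend on the length used, and the deposited FPKM values use an unusual one. Among 5849 genes that never fell under 100 counts, the length that count and FPKM imply was within 1% of the summed lengths of all distinct annotated exons for 97.7%. Overlapping exons of different transcripts are then counted repeatedly. The implied length of Pttg1 was 4741 bases, against 2000 bases of merged exons and 1674 bases for its longest transcript. That of Stag1 was 20877 bases against 11781, and that of Rad21 equalled the merged exons at 4232 bases. By deposited FPKM, Pttg1 therefore stood 13.4-fold above Smc3 where merged exons gave 29.3-fold. With longest transcripts the order of the 10 members was that of merged exons.

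**Figure D5:**
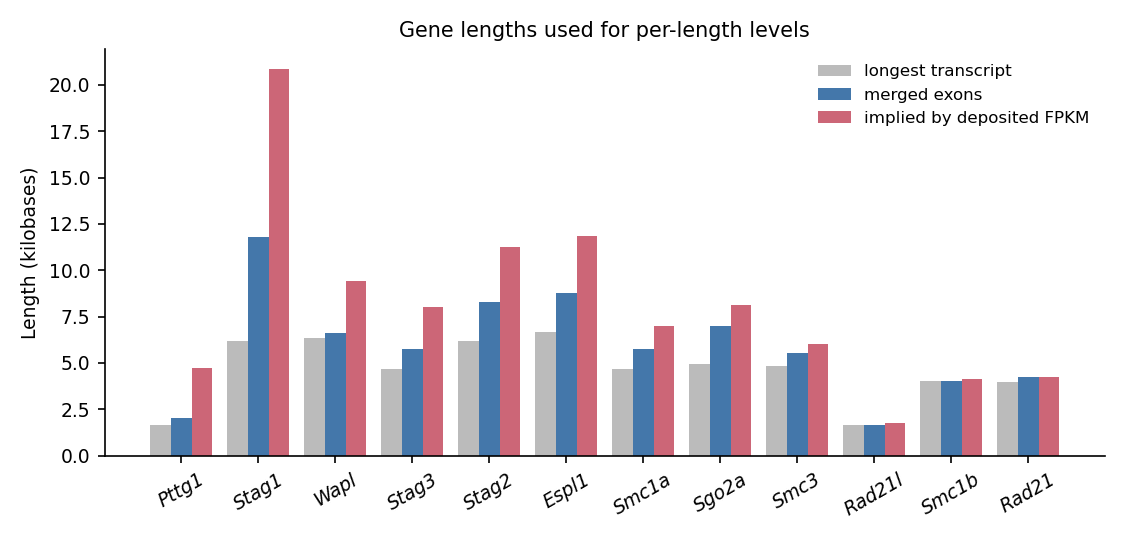
Length in kilobases of the longest annotated transcript (grey), of the merged exons (blue) and as implied by the deposited counts and FPKM (red), for 9 members with counts and their 3 paralogues. As a ratio, red exceeds blue most for Pttg1, at 4741 against 2000 bases; in bases it does so most for Stag1, at 20877 against 11781, and the bars are equal for Rad21.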

How the data were processed

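The authors deposited 1 table with a raw count and an FPKM value per Ensembl gene and library, per the file headers. Per the submitters' processing notes, CASAVA 1.8, TopHat2 2.0.6 and the mm10 build were used; the counting program is not given in the sources used here. Per the labels' protocols, libraries came from the SMART-Seq HT kit; it primes on poly(A), amplifies by PCR and keeps neither strand nor molecule identifiers. Symbols matched 55141 of 55487 identifiers (GENCODE M21, GRCm38, the assembly of mm10).

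Counts were used as deposited in edgeR 4.0.16 (R 4.3.3): TMM scaling, filterByExpr with a minimum count of 10, robust quasi-likelihood test across all genes, Benjamini-Hochberg adjustment, threshold 0.05. SE is the log2 fold change divided by the square root of F. log2 CPM for spreads used a prior count of 2. FPKM entered no test across genes. Similar transcripts were sought with BLAST 2.17.0. Scripts were tested on simulated counts. Alternatives were RLE and library-size scaling, DESeq2 1.42.0, limma-voom (limma 3.58.1), other filters, a threshold of 0.10, a replicate block, other lengths and each library left out.

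The members and lists were chosen with earlier results of these data known. Named beside the members were 5 paralogues, the 5 other pathway genes with the smallest p, and the 3 genes nearest in pattern to the member of largest spread.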

Additional observations from a re-analysis of the deposited data

How the results depend on the processing

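The count of 0 members and 0 other pathway genes called held under all 14 alternative settings. Over all genes 5 passed in the reported fit, 8 by DESeq2, and between 5 and 12 without 1 library. With the replicate number as a block (replicate block) 7 genes passed over all genes, 0 of them members, and Wapl had a log2 fold change of 0.45 (unadjusted p = 0.0299, adjusted p = 1.00, edgeR). The numbers were not taken to pair the libraries, since deviations of same-numbered libraries correlated at 0.144, 0.0441 and 0.2004, although each library correlated best with its own number. Scaling moved no member's direction. Leaving out 1 library reversed the sign in 12 cases of fitted log2 changes over 6 genes, none of them called: Rad21 from -0.0335 to 0.10, Smc1b from -0.0296 to 0.17, Sgo2a from -0.17 to 0.00224, Smc1a from -0.17 to 0.0643, Rad21l from -0.36 to 0.29 and Sgo1 from -0.0142 to 0.0901. Without 1 library, the metformin minus control difference ran from -0.33 to 0.17 percentage points for the Stag3 share and from -0.15 to 0.28 for the log2 Pttg1 to Espl1 ratio, so that both changed sign. The Smc1b share difference ran from 0.456 to 3.62 percentage points and the log2 Wapl to Sgo2a ratio from 0.19 to 0.73, with no change of sign. Other lengths kept the sign of each difference. They moved the level of the Smc1b share (both lengths) and of the Pttg1 to Espl1 ratio (deposited FPKM) by more than the control SD. The same held for the Stag1 and Stag2 shares by longest transcript. By deposited FPKM, 8 of 10 members kept their place in the order of levels. The exact tests of 3 against 3 libraries cannot give a p below 0.1.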

Other observations

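Rec8 and Stag3 were set beside other genes of meiotic prophase, a list chosen after their values were seen and given with no test. Of 27 such genes in the table, 10 had at least 100 counts in every library and 6 had fewer than 10 in every library. The rest fell in neither class. Of the 27, 3 (Syce3, Spo11 and Stra8) had 0 throughout, where 26.7% of all protein-coding genes in the table had 0. No share over all genes was computed for the other count classes. The counts are raw, not divided by gene length. The chromosome axis and synaptonemal complex genes Sycp3 and Sycp2 had 1765 to 3661 and 1984 to 2484 counts, and the telomere attachment gene Terb1 had 1039 to 1478. Tex12, of the central element of the synaptonemal complex, had 1727 to 2979 counts, and the crossover gene Msh4 689 to 823. The recombinase gene Dmc1, in contrast, had 0 to 5 counts. Messages of prophase proteins were thus read at high and at very low counts in the same libraries. Rec8, at 0, would fall in the class under 10 counts, and Stag3, at 2 to 13, in neither class.

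The drop of Wapl in control replicate 3 to 0.497 of the next lowest library was looked for in other genes, a search chosen after the Wapl values were seen. Of 6668 genes averaging at least 10 CPM, 31 had control replicate 3 as their lowest library at 0.6 or less of the next lowest. The other libraries had 22, 24, 31, 24 and 37 such genes each, so control replicate 3 was not apart in this count.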
